A study of Mus musculus with 8 samples.

Results

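The RNA of the cytosolic ribosomal proteins was measured in mouse embryonic stem cells in which the transcription factor JUN had been switched on and bromodomain inhibitors had been added. The genes were chosen by their names in the deposited table, as every name made of Rpl or Rps and a number, alone or followed by a, x, l or al, together with *Rplp0*, *Rplp1*, *Rplp2* and *Rpsa*. *Rps27l* and names of pseudogenes (-ps) were left out. This gave 82 members of the 50600 rows, 51 of the large subunit and 31 of the small subunit, and the naming rule uses no measured value. The cells were JUN TetON ESCs of the OG2 line, of a mixed 129SVJ, C57B6 and CBA background, grown feeder free in 2i/LIF medium and taken at passage 12. The transgene and 2 µg/ml doxycycline, which induces it, were common to all groups, so that no uninduced cells enter any comparison. The groups were DMSO (the solvent), PFI-3 (an inhibitor of the bromodomain of BRG1), BI-9564 (an inhibitor of the bromodomains of BRD7 and BRD9) and P+B (both compounds), given for 6 h per the labels, with 2 replicate libraries in each group and 8 in all. The labels give no dose of the compounds and do not say whether the line is 1 clone. They also do not say that the replicates are separate cultures, so p-values measure the spread between these libraries, which may be technical.

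Ribosomal proteins join the ribosomal RNAs in a large and a small subunit, which together translate mRNA into protein. Each protein is present once in most ribosomes, apart from the acidic stalk proteins, and nearly all are made from a single active gene that has left many processed copies in the genome. The mRNAs of this family typically begin with a run of pyrimidines, the terminal oligopyrimidine (TOP) tract, through which mTOR and LARP1 adjust their translation. Rapidly dividing cells such as ESCs spend a large part of their mRNA on this family.

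The starts of 6 members on which the results below turn are shown first: the stalk genes *Rplp0*, *Rplp2* and *Rpl12*, the subunit gene *Rpl38*, and *Rpl11* and *Rpl5*, whose proteins form a complex with the 5S rRNA. Each is the coding strand from 30 bases before to 30 bases after the RefSeq start on GRCm38.p6, with the longest run of C and T in capitals.
Rplp0 (chr5:115559437-115559496, + strand): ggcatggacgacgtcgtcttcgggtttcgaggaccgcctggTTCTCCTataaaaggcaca
Rplp2 (chr7:141447621-141447680, + strand): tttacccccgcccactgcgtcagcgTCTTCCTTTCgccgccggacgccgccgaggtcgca
Rpl12 (chr2:32961682-32961741, + strand): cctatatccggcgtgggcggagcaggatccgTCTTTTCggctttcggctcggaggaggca
Rpl38 (chr11:114668550-114668609, + strand): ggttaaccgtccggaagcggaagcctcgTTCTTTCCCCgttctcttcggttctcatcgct
Rpl11 (chr4:136053364-136053423, - strand): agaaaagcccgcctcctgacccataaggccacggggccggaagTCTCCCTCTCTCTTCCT
Rpl5 (chr5:107900498-107900557, + strand): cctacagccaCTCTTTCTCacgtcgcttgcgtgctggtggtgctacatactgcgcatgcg
The run is 10 bases long in *Rplp2* and *Rpl38*, 9 in *Rpl5*, 7 in *Rplp0* and *Rpl12*, and 17 in *Rpl11*, where it reaches the end of the window. The RefSeq start need not be the start in use, which was not measured. It lies on the start of the main GENCODE transcript for *Rplp0* and *Rpl11*, and 26 to 153 bases from it for the other 4. Relative to the RefSeq start, the run begins at -5 in *Rplp2*, -2 in *Rpl38*, 1 in *Rpl12*, 11 in *Rplp0*, 13 in *Rpl11* and -20 in *Rpl5*. A run in capitals is therefore not shown to be a TOP tract.

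Of the 82 members, 60 have a promoter in the RefSeq table, and pyrimidine runs were more frequent in their windows than in those of other genes. A run of at least 10 bases was present in 25 of the 60 (41.7%), against 12.4% of the 7724 other tested genes. The letters CTTTC, searched on the coding strand alone, were present in 22 (36.7%), against 7.53% of the other tested genes and 9.18% of all 27025 genes of the promoter table. A gene with more than 1 start was counted if any of its windows matched. The letters CTTCC, which can share bases with CTTTC, were present in 20 (33.3%, against 18.7% and 14.4%), and CTCTTTC, which contains CTTTC, in 8 (13.3%, against 0.867% and 0.969%). By subunit, CTTTC was present in 17 of 38 large and 5 of 22 small subunit genes. These matches describe the windows and say nothing on which start a cell uses.

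The values are TPM that were made whole numbers, so that a level is already per length and can be compared between genes, but the number of reads behind it is unknown. The libraries summed to between 991574 and 991897, and between 10285 and 10451 genes per library had a level of at least 5. All 8 ESC markers were present (levels 25 to 2930), 4 of 8 fibroblast or feeder markers were at 0 in all libraries and the others reached at most 4, and 4 of 5 haematopoietic markers, including *Ptprc*, were at 0. The fifth, *Cd68*, a lysosomal protein gene used as a macrophage marker, had 27 and 24 in DMSO, 30 and 20 in PFI-3, 15 and 14 in BI-9564 and 8 and 15 in P+B, and was lower in P+B than in DMSO by 1.14 ± 0.29 on the log2 scale (adjusted p = 0.0637, and 0.0488 with replicate number as a block). The primitive endoderm markers reached at most 5. *Jun*, the induced gene, had levels of 1970 and 2877 in DMSO, 1570 and 2227 in PFI-3, 2071 and 3011 in BI-9564 and 1569 and 2159 in P+B. It was thus high in every library, and higher in replicate 2 than in replicate 1 of every group. Within each replicate number it was lower in the libraries with PFI-3: P+B against DMSO had a log2 difference of -0.37 (adjusted p = 0.437, and 0.00156 with the block) and P+B against BI-9564 one of -0.44 (0.769, and 0.00635 with the block), while PFI-3 against DMSO had -0.35 (0.876, and 0.116 with the block).

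The members were among the most abundant mRNAs of these cells. Of the 82, 80 had a mean level of at least 5 over the 8 libraries and were tested, with a median of their mean levels of 1430.9, against 30.1 for all 10222 tested genes. Mean levels were 1000 or more in 57 members, between 500 and 1000 in 16, and under 500 in 7. The members made up 44 of the 100 most abundant genes. By subunit the median level was 1372 over 49 large and 1702 over 31 small subunit genes. For comparison, 80 tested rows are named for the mitochondrial ribosome (Mrpl or Mrps and a number), including the pseudogene names *Mrpl23-ps1* and *Mrpl48-ps*. They had a median level of 70.7 and a highest mean level of 269.1.

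The highest levels belonged to *Rplp1* (4868 as the mean over 8 libraries), an acidic protein of the stalk that recruits translation factors, and *Rps2* (4845), which lines the entry of the mRNA channel. *Rplp1* ranged from 4414 to 5351 and *Rps2* from 4588 to 5240, so their levels overlapped. *Rpl13* (3938 to 4370) and *Rpl41* (3696 to 4439), which encodes the smallest ribosomal protein, were also among the highest and overlapped each other. At the low end stood *Rpl39l* (38 to 85), a paralog of *Rpl39* known from the testis, *Rpl5* (61 to 86), *Rps12* (77 to 135) and *Rpl12* (114 to 175). *Rpl3l*, the paralog of *Rpl3* known from striated muscle, was listed at 0 to 3, and *Rpl6l*, which GENCODE annotates as a processed pseudogene, at 0 in all 8 libraries. Both were left untested. GENCODE annotates *Rps4l* (928 to 1200) as a transcribed processed pseudogene, and the other 80 members as protein coding. The plot of levels by gene shows how little the 8 libraries differed beside the range between genes: the coefficient of variation over the 8 libraries had a median of 4.99% over the tested members, against 15.5% over all tested genes. It was under 10% in 72 of the 80, against 23.8% of all tested genes, and ran from 1.97% in *Rpl4* to 28.1% in *Rpl39l*. All tested genes had a much lower median level (30.1), and the coefficient was not compared with genes of like level.

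**Figure D1:**
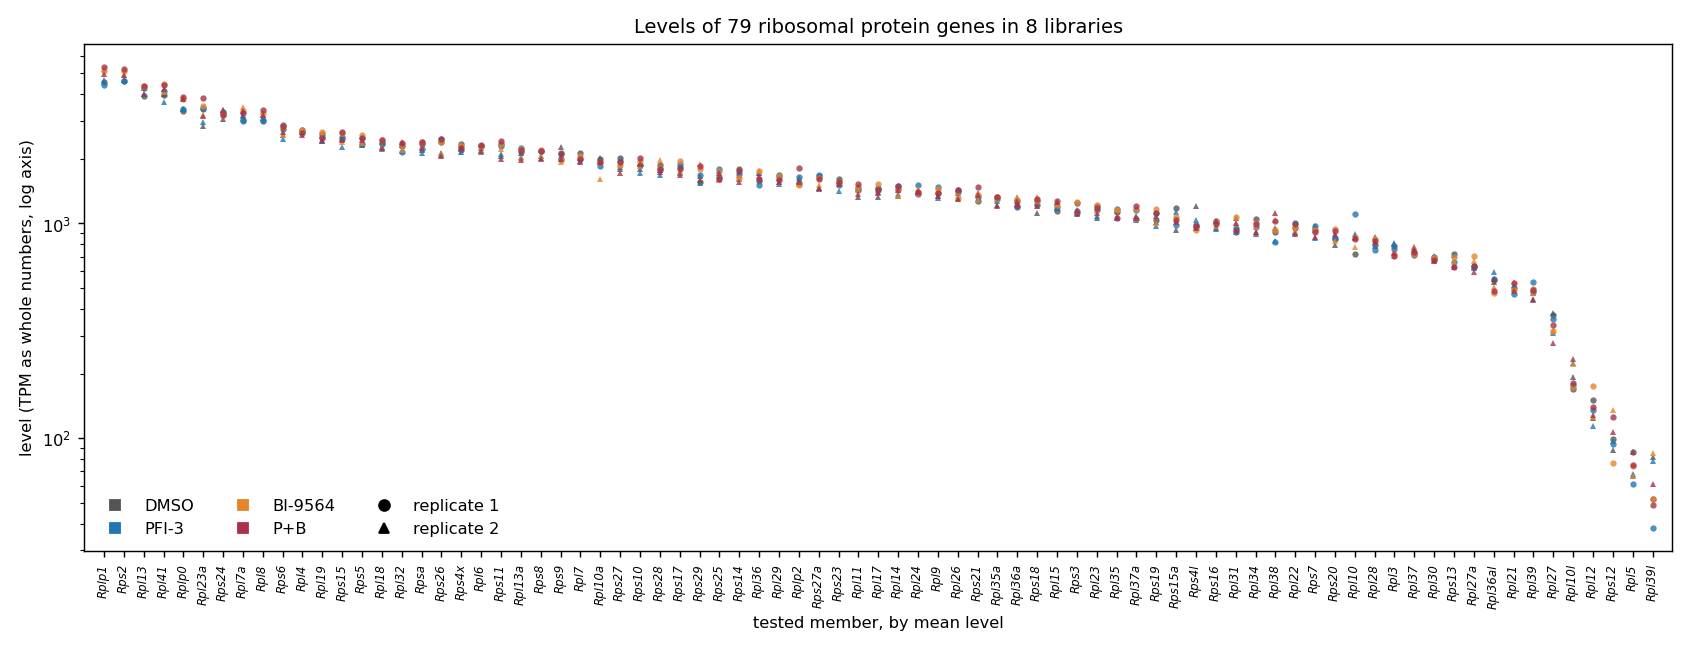
Level (TPM as whole numbers, log axis) of 79 of the 80 tested members in each of the 8 libraries, ordered by mean level, with colours for the 4 groups and circles and triangles for replicates 1 and 2. Most genes lie above 500 with points that nearly coincide, and the last 5, from *Rpl10l* to *Rpl39l*, fall to between 38 and 234.

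The low rows of *Rpl5*, *Rpl12* and *Rps12* stood beside high rows of annotated copies. A copy was taken as any other GENCODE gene whose transcripts hold at least 10% of the 50-base words of the member's main mRNA. Such copies existed for 74 of the 82 members, 500 in all, of which 424 are in the table, 240 of them at 0 in every library and 45 with a mean level of at least 5 (37 annotated as pseudogenes and 8 as protein coding). In 12 tested members less than 50% of the sum of member and copies was in the member's own row. For *Rps12*, a protein of the small subunit beak, the own row held 2.00% (mean level 102.9) and its copies a mean level of 5050, nearly all of it in *Rps12-ps3* (4724 to 5518), which GENCODE lists as protein coding. For *Rpl5* it was 3.54%, with *Gm15500* at 1919 to 2070, and for *Rpl12* 4.20%, with *Gm10275* at 2951 to 3278. With the copies added, *Rps12* moved from rank 78 to rank 2 among the members and *Rpl12* from 77 to 10, and the tested members under a level of 500 fell from 7 to 3 (*Rpl39*, *Rpl10l* and *Rpl39l*). Levels of members with such copies are therefore uncertain, since reads that fit both can be given to either. In addition, 13 members, *Rpl5* and *Rpl12* among them, overlap an exon of another gene, and the strand setting of the counting is not given in the sources used here.

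**Figure D2:**
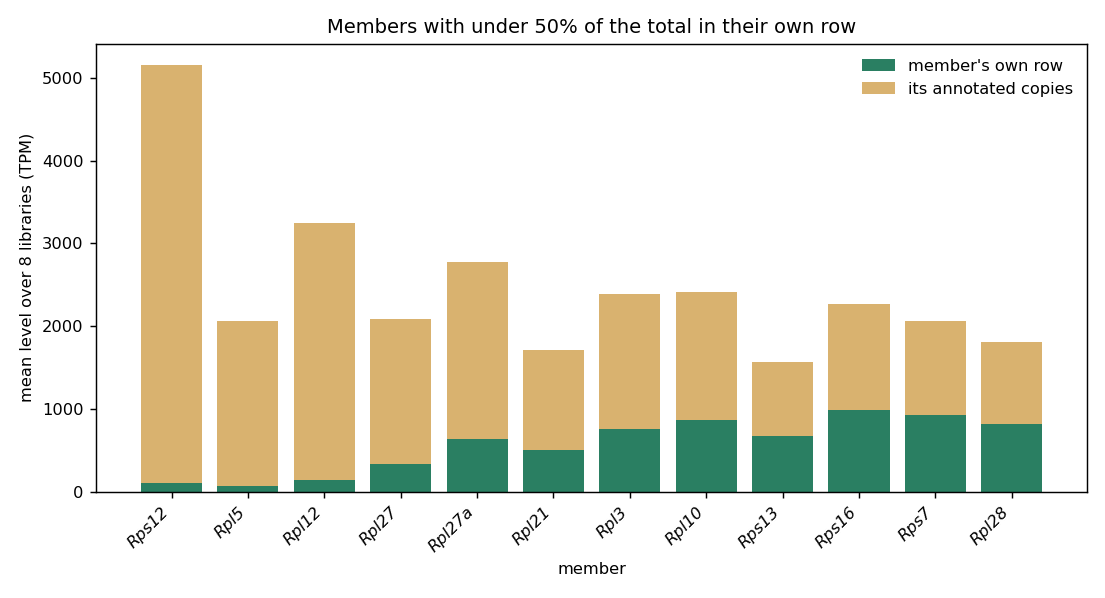
Mean level over the 8 libraries (TPM) of the 12 tested members with less than 50% of the sum in their own row, as stacked bars of the own row (green) and of the annotated copies (tan). The own row is hardly visible for *Rps12*, *Rpl5* and *Rpl12* (2.00%, 3.54% and 4.20% of the sum) and reaches 45.2% for *Rpl28*.

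The rows of copies could also exchange their values between libraries. *Gm12191*, a copy of *Rpl30*, had levels of 721 and 542 in DMSO, 603 and 664 in PFI-3, 651 and 623 in BI-9564 and 571 and 0 in P+B. *Rpl30-ps9*, another copy, was at 0 in the first 7 of these libraries and at 548 in P+B replicate 2. The row of *Rpl30* itself ranged from 670 to 708 in the 8 libraries, and its residual SD within groups, 0.012 on the log2 scale, was the lowest of the members. *Gm8210* and *Gm13841*, copies of *Rpl29* with the same share of its words, had identical values in every library (304 to 356).

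Whether the compounds changed the members was asked by comparing each treatment with DMSO, P+B with each compound alone, and BI-9564 with PFI-3. No tested member passed an adjusted p-value under 0.05 with a fold change of at least 1.5 in any of these comparisons or in the interaction (P+B against the sum of both single effects), by limma with Benjamini-Hochberg adjustment over the 10222 tested genes. The share of all tested genes that passed was 4% for P+B against DMSO, 0% for PFI-3 against DMSO, 0.108% for BI-9564 against DMSO, 1.31% for P+B against PFI-3, 0.196% for P+B against BI-9564, 0.108% for BI-9564 against PFI-3 and 0% for the interaction. Without a fold threshold the count of members was again 0 in all 7, with 4.89%, 0%, 0.117%, 1.43%, 0.196%, 0.108% and 0% of all tested genes in the same order. At an unadjusted p-value under 0.05 there were 6, 2, 6, 4, 1, 6 and 1 of the 80 members in that order, against 22.6%, 6.79%, 14.9%, 16.6%, 7.97%, 14.2% and 3.26% of all tested genes.

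Differences of the members were small in every comparison. The median difference in log2(TPM + 1) over the 80 members was 0.0072 for P+B against DMSO (43 members higher and 37 lower), against 0.063 over all tested genes. Centring each library on its median gene moved this to -0.086 (15 higher and 65 lower, all genes -0.030), a shift larger than the SD between replicates of 0.051. It was -0.010 for PFI-3 (37 higher, all genes 0.018) and 0.034 for BI-9564 (59 higher, all genes 0.024), each against DMSO, and with centring -0.057 (12 higher) and -0.013 (33 higher). It was 0.018 for P+B against PFI-3 (all genes 0.028), -0.0091 for P+B against BI-9564 (all genes 0.022) and 0.040 for BI-9564 against PFI-3 (58 higher, all genes 0.0014), with centred values of -0.028, -0.055 and 0.040. Without centring these medians are smaller than the SD of the median member level between replicates of a group, which was 0.051 on the log2 scale. The large and small subunit had medians of 0.0089 and 0.0056 with P+B, and of 0.047 and 0.027 with BI-9564. With P+B, 61 of the 80 members differed from DMSO by less than 0.1, against 25% of all tested genes (43 members with centring). The 95% confidence interval lay wholly within a 1.5-fold change in either direction for 78 of the 80 members for P+B against DMSO, all except *Rpl39l* and *Rps12*, against 40.1% of all tested genes. It did so for 78 members for PFI-3 (all except *Rpl10* and *Rpl39l*, all genes 51.35%) and for 78 for BI-9564 (all except *Rpl39l* and *Rps12*, all genes 45.1%). All tested genes had a lower median level (30.1) and a larger residual SD within groups (median 0.172, against 0.071 for the members). At a mean level of at least 100 that SD was 0.096, and these shares were not counted for genes of like level. The summed level of the 8 ESC markers overlapped between the groups. It was 4884 and 3710 in DMSO, 5139 and 4145 in PFI-3, 4327 and 3290 in BI-9564 and 4413 and 3471 in P+B. *Tdgf1* was the 1 of 8 that passed both thresholds with P+B (fell by 0.93, adjusted p = 0.00916), against 4% of all tested genes. Both P+B libraries were also below both DMSO libraries in *Pou5f1* and *Sox2*, as in 18.9% of all tested genes. They were above them in *Esrrb* (141 and 100 against 86 and 58) and *Klf4* (48 and 35 against 32 and 25), as in 28.6% of all tested genes. The groups overlapped in *Nanog*, *Zfp42* and *Dppa5a*. The part of the ESC markers in the values of the members was not tested.

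**Figure D3:**
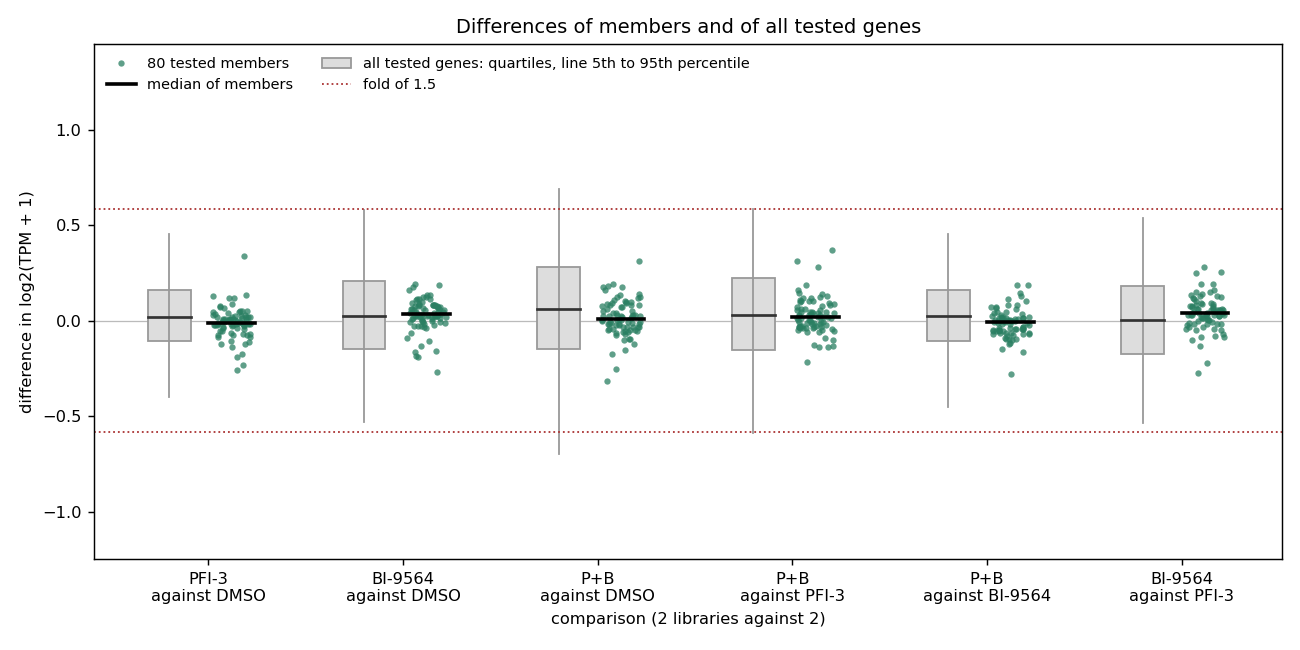
Difference in log2(TPM + 1) in 6 comparisons of 2 libraries against 2, for the 80 tested members (green points, black line at their median) and for all 10222 tested genes (grey boxes for the quartiles, lines from the 5th to the 95th percentile), with dotted lines at a fold of 1.5. All members lie between the dotted lines, and their medians run from -0.010 to 0.040.

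Beside *Rplp0* and *Rplp1*, the members under an unadjusted p-value of 0.05 for BI-9564 against DMSO were *Rps18* (0.16), *Rps9* (-0.16), *Rpl3* (-0.16) and *Rpl27* (-0.27). Groups that did not overlap were counted as well. Both P+B libraries were above both DMSO libraries in 14 of the 80 members (17.5%, against 28.6% of all tested genes) and below both in 12 (15%, against 18.9%). For PFI-3 the members were 7 above (8.75%, against 16.5%) and 9 below (11.2%, against 12.8%). For BI-9564 they were 17 above (21.2%, against 22.9%) and 10 below (12.5%, against 18.3%). All 4 libraries that received BI-9564, alone or in P+B, lay above the other 4 in 6 members (7.5%, against 7.78% of all tested genes), which were *Rplp0*, *Rplp1*, *Rps2*, *Rpl7a*, *Rpl8* and *Rpl15*, and below them in *Rpl3* alone (1.25%, against 6.04%).

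Within the stalk, which carries the factors of elongation to the ribosome, *Rplp0* and *Rplp1* were at higher levels in the libraries with BI-9564. *Rplp0*, the base of the stalk, had levels of 3328 and 3427 in DMSO, 3407 and 3428 in PFI-3, 3801 and 3836 in BI-9564 and 3872 and 3780 in P+B. It was 1 of the 6 members whose libraries with BI-9564 lay above all others. The log2 difference was 0.18 ± 0.05 (SE, n = 2 against 2) for P+B against DMSO (adjusted p = 0.0815) and 0.18 ± 0.05 for BI-9564 against DMSO (adjusted p = 0.182), by limma. *Rplp1*, one of the acidic stalk proteins, had 4581 and 4549 in DMSO, 4414 and 4676 in PFI-3, 5122 and 5258 in BI-9564 and 5351 and 4989 in P+B. Its 4 libraries with BI-9564 again lay above the other 4, with a difference of 0.18 ± 0.06 for P+B against DMSO (adjusted p = 0.117). *Rplp2*, its partner, had 1548 and 1636 in DMSO against 1819 and 1552 in P+B, and its groups overlapped (0.078 ± 0.081, adjusted p = 0.615). *Rpl12*, which joins the stalk to the large subunit, had 150 and 124 in DMSO against 139 and 128 in P+B (-0.032 ± 0.171, adjusted p = 0.935), on a row that holds 4.20% of the sum with its copies. *Gm8730*, a copy of *Rplp0* that can share its reads, had 866 and 869 in DMSO against 1036 and 987 in P+B.

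*Rpl38*, a small protein of the large subunit known for its part in translation of patterning genes, had the highest difference of the members between P+B and PFI-3. It had levels of 917 and 950 in DMSO, 821 and 833 in PFI-3, 935 and 1040 in BI-9564 and 1023 and 1114 in P+B. Both P+B libraries were above both DMSO libraries, and both PFI-3 libraries were below them. The difference was 0.37 ± 0.08 for P+B against PFI-3 (adjusted p = 0.0622), 0.25 ± 0.08 for BI-9564 against PFI-3 (adjusted p = 0.217), 0.19 ± 0.08 for P+B against DMSO (adjusted p = 0.178) and -0.17 ± 0.08 for PFI-3 against DMSO (adjusted p = 0.729). These comparisons share libraries. The interaction of *Rpl38*, 0.29 ± 0.11, was the only one of a member with an unadjusted p-value under 0.05 (0.0254, adjusted p = 1).

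Replicate numbers were taken to pair the samples, and with the replicate number as a block some of these members passed the adjusted p-value, though none reached a fold of 1.5. For P+B against DMSO there were 4 of the 80 members, all higher, against 11.6% of all tested genes: *Rplp0* (adjusted p = 0.0159), *Rpl23a* (0.0418), *Rpl38* (0.0423) and *Rplp1* (0.0452). For BI-9564 against DMSO there was *Rplp0* (adjusted p = 0.0434, all genes 2.78%), for P+B against PFI-3 *Rpl38* (0.00798) and *Rplp0* (0.0371, all genes 5.62%), and for BI-9564 against PFI-3 *Rpl38* (0.0442, all genes 2.51%). No member passed for PFI-3 against DMSO (all genes 0%), P+B against BI-9564 (all genes 0.968%) or the interaction (all genes 0%). *Rpl23a*, a protein at the exit of the tunnel through which the new chain leaves, had 3396 and 2852 in DMSO against 3824 and 3173 in P+B. Its replicate 1 was above its replicate 2 in every group, and P+B was above DMSO within each replicate number (0.16 ± 0.04 with the block).

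**Figure D4:**
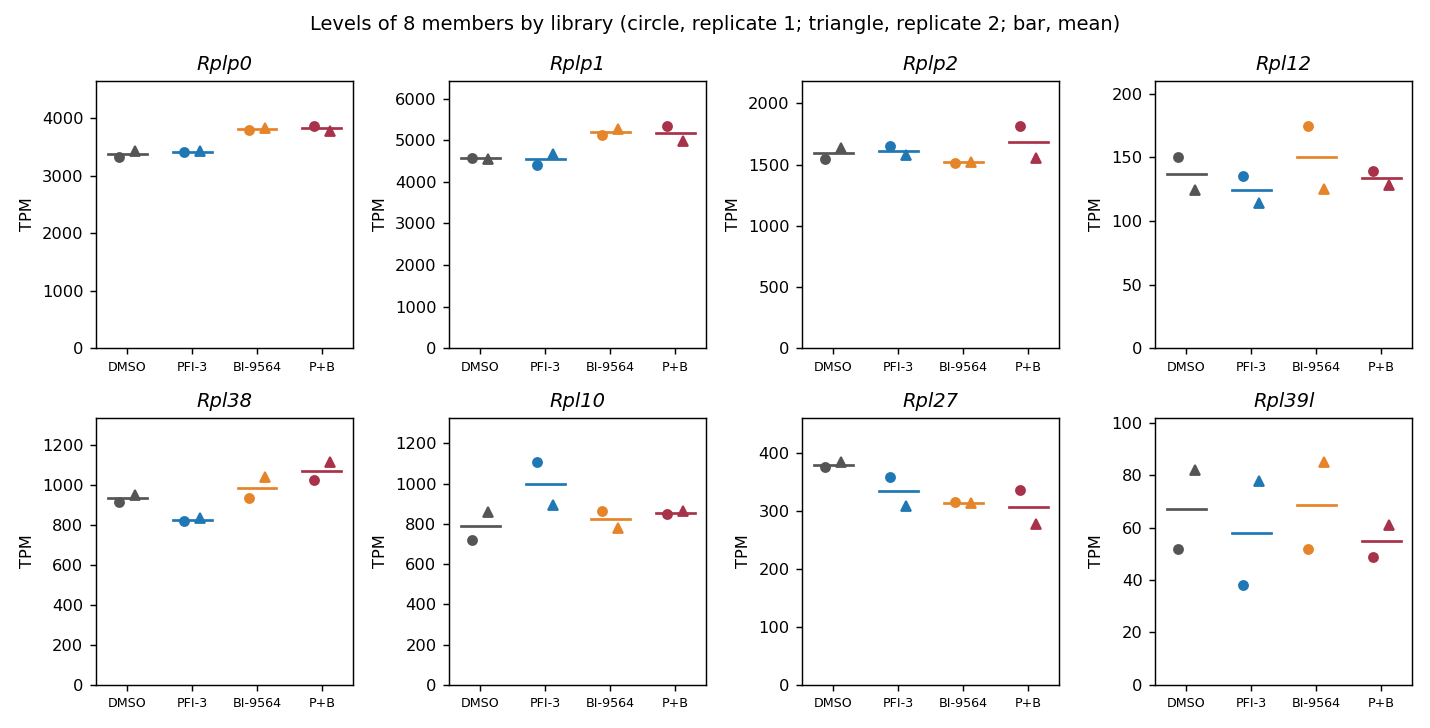
Level (TPM, axes from 0) of 8 members in each library, with circles for replicate 1, triangles for replicate 2 and bars for the mean of the 2. *Rplp0* and *Rplp1* lie higher with BI-9564 and P+B than with DMSO and PFI-3, *Rpl38* is lowest with PFI-3 (821 and 833), and *Rpl39l* is higher in replicate 2 of every group.

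The complex of *Rpl5*, *Rpl11* and the 5S rRNA is best known for binding MDM2 when ribosome assembly fails. *Rpl11* had levels of 1432 and 1330 in DMSO, 1468 and 1440 in PFI-3, 1477 and 1426 in BI-9564 and 1525 and 1375 in P+B, with a difference of 0.069 ± 0.071 for P+B against DMSO (adjusted p = 0.612). *Rpl5* had 86 and 67 in DMSO against 75 and 86 in P+B (0.080 ± 0.145, adjusted p = 0.783). For both genes DMSO and P+B overlapped. With its copies added, *Rpl5* had 2118 and 2018 in DMSO against 2054 and 2005 in P+B, a difference of -0.027 ± 0.054 (adjusted p = 0.808).

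The 7 members at the tunnel exit had a median difference of -0.0092 with P+B against DMSO, from -0.093 in *Rpl35* to 0.16 in *Rpl23a*, and 0 of 7 passed without the block. The values nearest to 0 in that list were those of *Rpl26* (-0.0092) and *Rpl22* (0.016). The 8 members at the decoding centre and the mRNA channel had a median of -0.018, with 4 higher and 4 lower. Among them *Rps2* had 4588 and 4658 in DMSO against 5240 and 4902 in P+B (0.13 ± 0.06, adjusted p = 0.204), and *Rps9*, which helps keep decoding accurate, had 2120 and 2259 in DMSO against 2106 and 1998 in P+B (-0.093 ± 0.061, adjusted p = 0.405). In both genes the groups did not overlap. *Rps28* (-0.042) and *Rps26* (0.0056) were nearer to 0. The 10 members best known for mutations in Diamond-Blackfan anaemia had a median of 0.024, from -0.10 in *Rps7* to 0.10 in *Rps10*, and 0 of 10 passed.

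The lowest differences with P+B against DMSO were in *Rpl27*, *Rpl39l*, *Rps4l* and *Rpl3*. *Rpl27*, a large subunit protein, had levels of 375 and 384 in DMSO, 359 and 309 in PFI-3, 315 and 314 in BI-9564 and 336 and 277 in P+B. Every treated library lay below both DMSO libraries, and the difference was -0.31 ± 0.11 for P+B (adjusted p = 0.139). Its row holds 16.0% of the sum with its copies. That sum was 2063 and 2095 in DMSO against 2095 and 2072 in P+B, a difference of 0.0031 ± 0.0566 (adjusted p = 0.987). *Rpl3*, which lies by the peptidyl transferase centre, had 789 and 804 in DMSO, 760 and 807 in PFI-3, 723 and 704 in BI-9564 and 703 and 727 in P+B (-0.16 ± 0.06, adjusted p = 0.198), so that the libraries with BI-9564 lay below the others. Its copy *Rpl3-ps1* had 1716 and 1738 in DMSO against 1456 and 1523 in P+B, and the sum of *Rpl3* and its copies differed by -0.20 ± 0.06 (adjusted p = 0.0734). *Rps13* had 719 and 644 in DMSO against 628 and 624 in P+B (-0.12 ± 0.08, adjusted p = 0.397), and -0.0093 with its copies added.

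Some paralogs stand in for their parent genes in some tissues. Of those listed as paralogs here, *Rps4l*, annotated as a transcribed processed pseudogene, had 982 and 1200 in DMSO against 973 and 949 in P+B (-0.18 ± 0.10, adjusted p = 0.321). *Rpl10l*, known from the testis, had 170 and 193 in DMSO against 180 and 234 in P+B (0.18 ± 0.17, adjusted p = 0.591). *Rpl36al* had 544 and 531 in DMSO against 487 and 554 in P+B (-0.049 ± 0.084, adjusted p = 0.771), and *Rpl39l* had 52 and 82 in DMSO against 49 and 61 in P+B (-0.25 ± 0.36, adjusted p = 0.728). The groups overlapped in *Rpl10l*, *Rpl36al* and *Rpl39l*.

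*Rpl10*, which completes the large subunit in the cytoplasm, was the member with the highest difference for PFI-3 against DMSO. It had levels of 721 and 857 in DMSO, 1106 and 893 in PFI-3, 863 and 780 in BI-9564 and 847 and 865 in P+B. Both PFI-3 libraries lay above all others, at 0.34 ± 0.12 (adjusted p = 0.639). Its copy *Rpl10-ps3* had the reverse order, with 1766 and 1557 in DMSO against 1313 and 1469 in PFI-3. The sum of *Rpl10* and its copies was 2489 and 2414 in DMSO against 2419 and 2369 in PFI-3, a difference of -0.034 ± 0.057 (adjusted p = 0.964). *Rps12* had the highest difference with P+B against DMSO, with 99 and 88 in DMSO, 77 and 135 in BI-9564 and 126 and 107 in P+B (0.31 ± 0.23, adjusted p = 0.456). With copies added, *Rps12* had 5122 and 4817 in DMSO against 5645 and 5175 in P+B (0.12 ± 0.06, adjusted p = 0.272).

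The sum of all members, as a share of the library total, differed little between groups. It was 13.5% and 13.2% in DMSO, 13.6% and 13.1% in PFI-3, 14.0% and 13.6% in BI-9564 and 14.1% and 13.4% in P+B, or 13.4% ± 0.2, 13.3% ± 0.4, 13.8% ± 0.3 and 13.7% ± 0.5 (SD, n = 2 each). PFI-3 and P+B overlapped DMSO, and both BI-9564 libraries lay above both DMSO libraries. No test was made, since an exact permutation test (two-sided) of 2 libraries against 2 reaches at best p = 0.333. The copies held a further 3.17% to 3.42% of each library, and members and copies together 16.4% to 17.5%. The ratio of the large to the small subunit sum was 1.42 to 1.47. TPM is a share of a fixed total, so a change in total mRNA per cell, or in the amount of ribosomes, would not be seen.

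The spread between replicates of a group was small for most members. The residual SD over the 4 groups had a median of 0.071 on the log2 scale over the members, against 0.172 over all tested genes and 0.096 over the 1627 tested genes with a mean level of at least 100. It ran from 0.012 in *Rpl30* to 0.50 in *Rpl39l*, and *Rps12* (0.30), *Rpl10l* (0.23), *Rpl12* (0.22) and *Rpl5* (0.16) came next. With copies added it was 0.055 for *Rps12*, 0.046 for *Rpl12* and 0.029 for *Rpl5*. It rose to 0.073 for *Rpl30*, and from 0.023 to 0.052 for *Rpl15*. The median over the members was then 0.065.

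The difference between replicates went the same way in every group. Replicate 2 was below replicate 1 in 49 members of DMSO, 53 of PFI-3, 56 of BI-9564 and 59 of P+B, with medians of -0.038, -0.062, -0.054 and -0.059. It was below in all 4 groups in 31 of the 80 members (38.8%), against 12.8% of all tested genes, and above in all 4 in 6 (7.5%), against 11.1%. Of the 1627 tested genes with a mean level of at least 100, 313 were below in all 4 groups and 351 above. The 31 were 18 large and 13 small subunit genes. The 6 were *Rpl7a*, *Rpl36*, *Rpl37*, *Rpl38*, *Rpl10l* and *Rpl39l*. With copies added the counts were 33 and 5.

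*Rps26*, which contacts the mRNA at the exit channel, had 2389, 2473, 2396 and 2468 in replicate 1 of DMSO, PFI-3, BI-9564 and P+B, and 2123, 2080, 2097 and 2071 in replicate 2. The replicates did not overlap, while the 4 groups lay close together within each replicate number. *Rpl39l* went the other way, with 52, 38, 52 and 49 in replicate 1 and 82, 78, 85 and 61 in replicate 2. With the replicate number in the fit, the median residual SD of the members fell from 0.071 to 0.050. It also fell outside the members, from 0.172 to 0.142 over all tested genes. Over the tested genes with a mean level of at least 100 it fell from 0.096 to 0.068.

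Other genes moved with the replicate number. *Jun* was higher in replicate 2 of every group (values above), the summed level of the 8 ESC markers was 4327 to 5139 in replicate 1 and 3290 to 4145 in replicate 2, with 6 of the 8 lower in replicate 2 of all 4 groups, and genes of the mitochondrial genome took 7.43% to 8.54% of replicate 1 and 8.34% to 9.41% of replicate 2. As a share of the total outside the mitochondrial genome, the members were still lower in replicate 2 of every group, at 14.6% and 14.5% in DMSO, 14.9% and 14.3% in PFI-3, 15.2% and 14.8% in BI-9564 and 15.3% and 14.7% in P+B. On that scale both libraries of BI-9564 and of P+B lay above both DMSO libraries. The part of *Jun* and of the ESC markers in these differences was not tested, and the labels do not say what the replicate numbers stand for.

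**Figure D5:**
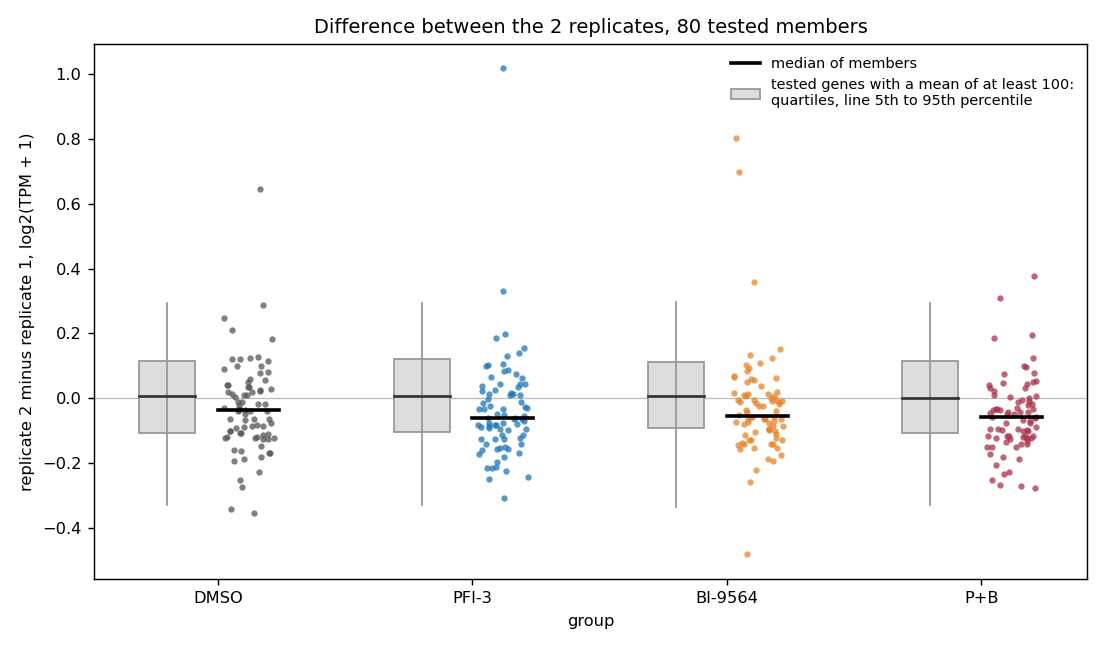
Replicate 2 minus replicate 1 in log2(TPM + 1) for the 80 tested members in each group (points, black line at the median), beside the 1627 tested genes with a mean level of at least 100 (grey boxes for the quartiles, lines from the 5th to the 95th percentile). The member medians lie below 0 in all 4 groups (-0.038 to -0.062), and the highest point, at 1.02 in PFI-3, is *Rpl39l*.

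Genes that work with the members were read from further lists. *Myc*, which encodes an activator of ribosome synthesis, had levels of 40 and 32 in DMSO, 26 and 25 in PFI-3, 32 and 33 in BI-9564 and 16 and 15 in P+B. It fell by 1.16 ± 0.15 on the log2 scale with P+B (adjusted p = 0.00546), and both P+B libraries were the lowest of all 8. *Eif4ebp1*, an mTOR substrate that holds back cap-dependent translation, had 614 and 669 in DMSO against 418 and 490 in P+B, and fell by 0.50 ± 0.09 (adjusted p = 0.0260), less than 1.5-fold. These were the 2 of 10 genes of the TOP regulator list that passed without a fold threshold, against 4.89% of all tested genes. *Mtor* and *Larp1* had differences of 0.0069 ± 0.194 and 0.031 ± 0.095.

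Of 16 translation factor and other genes known for a TOP start, 8 were higher and 8 lower with P+B, with a median of 0.0029, and 0 passed without the block. With the block, *Pabpc1* (0.15, adjusted p = 0.0293) was higher and *Eef1g* (-0.17, adjusted p = 0.0295) lower. The most abundant of them, *Eef1a1*, which brings the tRNA to the ribosome, had 13072 and 12223 in DMSO against 13737 and 13009 in P+B (0.081 ± 0.055, adjusted p = 0.424). Of 7 hosts of small nucleolar RNAs 5 were higher, with a median of 0.25, and 0 passed without the block. With the block *Snhg5* (0.37, adjusted p = 0.0436) and *Eif4a2* (0.32, adjusted p = 0.0135) did, against the same 11.6% of all tested genes.

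Of the ribosomal genes that the naming rule does not reach, *Fau*, *Rack1* and *Rps3a1* had differences of -0.084, 0.050 and 0.0084 with P+B against DMSO, and none passed. Of the paralogs outside the rule *Rpl22l1* had 228 and 166 in DMSO against 170 and 146 in P+B (-0.30 ± 0.15, adjusted p = 0.286), and *Rps27rt*, whose words make up 98.6% of those of *Rps27*, ranged from 0 to 74. Of the 80 tested rows named for the mitochondrial ribosome, with *Mrpl23-ps1* and *Mrpl48-ps* among them, 34 were higher and 46 lower with P+B, with a median of -0.046. *Mrpl45* and *Mrpl17* fell by 0.70 ± 0.09 (adjusted p = 0.00517) and 0.68 ± 0.14 (adjusted p = 0.0328), and were the only ones of the 80 to pass, against 4% of all tested genes. Of 278 rows named as pseudogenes of members, 23 were tested, 16 of them higher and 7 lower, with a median of 0.091, and 0 passed without the block.

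The members were also divided by the letters at their starts. The 22 members with CTTTC in the window had a median difference of -0.0075 with P+B against DMSO, and 37 tested members without it had 0.022. With BI-9564 the medians were 0.026 and 0.038, and with PFI-3 -0.013 and 0.0033. Replicate 2 was below replicate 1 in all 4 groups in 9 of the 22 and in 12 of the 37. The share was 38.8% over the 80 tested members and 12.8% over all tested genes.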

How the data were processed

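RNA-seq of 8 libraries in 4 groups was used. The authors deposited 1 table of TPM that had been made whole numbers, recorded here as a score: all values are whole and each library sums to about the same total. Per the submitters' processing notes, bcl2fastq, Bowtie2 2.2.5 and RSEM 1.3.0 were run on mm10. The annotation, the strand setting and the rounding step are not given in the sources used here. The depth of the libraries cannot be read from TPM, the error of counting is unknown, and no count test was run. After a pseudocount of 1, log2 values were fitted in limma 3.58.1 (R 4.3.3; lmFit, eBayes with a trend), all 4 groups in 1 fit of 4 residual degrees of freedom, for the 10222 genes whose mean reached 5. Benjamini-Hochberg adjustment was done per comparison, with thresholds of 0.05 and a fold of 1.5. The pseudocount makes fold changes of low genes smaller.

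The labels number the replicates of every group 1 and 2. For each of the 6 pairs of groups, replicate 2 minus replicate 1 was correlated across genes (Pearson's r 0.143 to 0.236, genes not being independent replicates). The numbers were therefore treated as pairing, and the fit was repeated with the number as a block. The naming rule reads no value, but it and the lists were chosen with earlier results of these data known. Members named are the 5 highest, the 5 lowest above 0, those listed at 0, the 5 largest rises and falls with P+B, the 5 with the largest residual SD, every member past an adjusted p of 0.05, all stalk, 5S RNA complex and paralog members, and the 2 largest and 2 smallest changes of the other member lists. Results of 1 such member, of 1 related gene and of the share that includes it are not reported here. *Rpl10*, *Rpl30*, *Rpl38* in other comparisons, *Rpl4* and the genes outside the member lists were named after their values were seen. Positions and copies are from GENCODE M21 on GRCm38, and promoters from RefSeq on GRCm38.p6. The fit was tested on simulated data. The alternatives were other pseudocounts, filters, scalings, models and thresholds, leaving out each library, and, added after seeing the data, member rows with their copies added.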

Additional observations from a re-analysis of the deposited data

How the results depend on the processing

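No member passed the adjusted p-value and fold thresholds in any of the 7 comparisons under any alternative run, including the replicate block and the copies added, a choice made after the data were seen. The interaction has no fit of only the libraries compared. Over all tested genes the number past both thresholds for P+B against DMSO was 409, and it was 718 with the replicate block, 201 without a filter on low values, 0 with only the 4 libraries compared, and 68 to 268 when 1 library was left out. The median member change with P+B against DMSO went from 0.0072 to -0.086 under median centring, where the median of all genes went from 0.063 to -0.030. Without 1 library it ran from -0.020 to 0.044. The other medians moved by less than the spread between replicates. The mean share of the members was higher with another denominator: outside the mitochondrial genome it was 14.6% in DMSO, 14.6% in PFI-3, 15.0% in BI-9564 and 15.0% in P+B. The replicate block changed the adjusted p-value of members only where stated above, for P+B against DMSO (4 members without a fold threshold, 0 with it), BI-9564 against DMSO, P+B against PFI-3 and BI-9564 against PFI-3.

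Differences of single members with P+B against DMSO, none of them past the thresholds, changed sign in these cases, whose cause was not tested. Under median centring they were -0.024 for *Rpl11*, -0.062 for *Rpl13*, -0.077 for *Rpl22*, -0.013 for *Rpl5*, -0.015 for *Rplp2* and -0.088 for *Rps26*. Under quantile normalization *Rpl12* was at 0.030. With copies added *Rpl12* was at 0.090, *Rpl27* at 0.0031 and *Rpl5* at -0.027. Leaving out 1 library gave ranges of -0.0090 to 0.37 for *Rpl10l*, -0.0053 to 0.14 for *Rpl11*, -0.17 to 0.10 for *Rpl12*, -0.032 to 0.093 for *Rpl13*, -0.060 to 0.092 for *Rpl22*, -0.077 to 0.059 for *Rpl26*, -0.14 to 0.044 for *Rpl36al*, -0.58 to 0.071 for *Rpl39l*, -0.098 to 0.26 for *Rpl5*, -0.036 to 0.19 for *Rplp2* and -0.12 to 0.13 for *Rps26*, the ends being reached without a library of DMSO for *Rpl12*, *Rpl39l* and *Rpl5* and without one of P+B for the others.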
